A study of Homo sapiens with 5 samples.

Results

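The short arm of human chromosome 1 holds, in band p34, a stretch in which neighbouring genes were higher together in one lung cancer cell line than in another. The stretch was taken as a window of 3.5 Mb, from 43 to 46.5 Mb on GRCh38. Its members are the protein-coding genes of GENCODE v44 that start in it. TSPAN1 and genes whose names start with RPS, RPL, UQCR, EIF or ZNF were left out. That gave 64 members of 68 such genes, against 61220 genes of every type with a transcript in the tables. The window was chosen because its genes moved together between the 2 cell lines in these same libraries, so the levels below describe that choice and no test of the window is given.

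The RNA came from NCI-H1975 and HCC827, established lines derived from human lung adenocarcinoma, grown separately with no drug or genetic change named in the labels; RNA of 1 replicate of each line was used. The labels name a spike-in mix of synthetic sequin transcripts for each line, mix A for NCI-H1975 and mix B for HCC827. Poly(A) RNA of both lines was pooled by mass in steps of 25%, and a pool is named by its percentages with NCI-H1975 written first: 100:0 is pure NCI-H1975, 75:25 holds 25% HCC827, and so on to 0:100, pure HCC827. Each pool gave 1 PCR-amplified nanopore cDNA library. The ends of the series are thus the pure lines, and the 3 inner libraries are mixtures of the same 2 preparations. No pool was repeated, so p-values measure scatter of these libraries about a trend and not the spread between cultures.

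As background, genes that lie side by side share more than an address. They can share a promoter when they point away from each other, they can share a chromatin domain, and they are gained or lost together when a chromosome segment changes in number, which is frequent in tumour lines. DNA copy number and chromatin were not analysed here. The window is dense and mixed in function: it holds regulators of mitosis such as CDC20 and KIF2C, enzymes of heme, cobalamin and peroxide metabolism, receptors, and subunits of chromatin and transcription complexes.

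The 5 libraries held between 2932250 and 4058751 reads. Levels are given as CPM (reads scaled to a common library size) after TMM scaling, which sets libraries on a scale where the bulk of genes does not move. The epithelial markers EPCAM, CDH1, KRT7, KRT8, KRT18, KRT19 and NKX2-1 were present in every library, and their summed level went from 5699 CPM at 100:0 to 16138 CPM at 0:100. PTPRC and CD3E of the leukocyte list had 0 reads in every library; its summed level, mostly CD68, went from 58.0 to 95.8 CPM. Of the fibroblast list, DCN had 0 reads, whereas COL1A1 and COL1A2 took the summed level from 188 CPM at 100:0 to 7.17 CPM at 0:100. The endothelial list (PECAM1, CDH5 and VWF) summed to between 0.897 and 1.42 CPM. The epithelial and leukocyte sums were higher and the fibroblast sum lower at 0:100, and their part in the members' levels was not tested. Sequin reads numbered 5475 at 100:0, then 4678, 2830, 1269 and 0, so the reads go against the label that names mix B for HCC827, and counts of members are also given without the 0:100 library.

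Promoter sequences are shown first, because the members share a location and not a known pathway. They are the 200 bases before the RefSeq start sites of TMEM125, CDC20 and FAAH. TMEM125 was the member with the largest slope and CDC20 a mitotic gene with many reads. FAAH had a slope below 0 that did not pass the test. Each stretch is written 5′ to 3′ on the strand of its gene, from RefSeq for GRCh38.p14. Capitals mark matches, on either strand, to the motifs searched. A GC box was searched as GGGCGG, and the motif of ETS factors as CCGGAAG. The YY1 motif was searched as AAGATGG, the E-box as CACGTG, and the cell cycle element named CHR as TTTGAA. The CCAAT box was searched by the letters of its name. The element called the TATA box was searched as TATAAA. The NRF1 palindrome was searched as well.
TMEM125 (chr1:43269783-43269982, plus strand): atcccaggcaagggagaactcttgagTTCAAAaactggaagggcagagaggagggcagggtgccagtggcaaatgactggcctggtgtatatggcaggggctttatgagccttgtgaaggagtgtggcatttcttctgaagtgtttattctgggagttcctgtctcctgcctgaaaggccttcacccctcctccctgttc
CDC20 (chr1:43358781-43358980, plus strand): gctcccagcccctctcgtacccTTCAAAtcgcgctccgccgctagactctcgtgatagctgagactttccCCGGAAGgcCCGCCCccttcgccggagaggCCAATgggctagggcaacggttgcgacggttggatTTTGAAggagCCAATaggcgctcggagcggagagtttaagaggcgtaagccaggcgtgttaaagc
FAAH (chr1:46394117-46394316, plus strand): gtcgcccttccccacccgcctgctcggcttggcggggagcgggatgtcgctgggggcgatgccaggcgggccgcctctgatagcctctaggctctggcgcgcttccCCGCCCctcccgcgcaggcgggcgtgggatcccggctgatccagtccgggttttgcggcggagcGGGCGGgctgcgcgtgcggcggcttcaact
The CDC20 stretch held 2 CCAAT boxes, an ETS match, a GC box and 2 matches to TTTGAA, and 1 of the latter lay between the 2 CCAAT boxes. The FAAH stretch held 2 GC boxes and no other match. The TMEM125 stretch held a single TTTGAA match. A match says only that these letters occur there. The TMEM125 stretch lies within EBNA1BP2, which spans 43164175 to 43270936 on the minus strand.

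Genes in head-to-head pairs start close together on opposite strands. In the 2 pairs shown the annotated start sites lie less than 100 bases apart, and the whole stretch between the start sites is given on the plus strand of GRCh38, with the same marking.
GPBP1L1 and TMEM69 (chr1:45688114-45688180, plus strand): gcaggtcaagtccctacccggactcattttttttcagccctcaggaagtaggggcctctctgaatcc
LRRC41 and UQCRH (chr1:46303617-46303697, plus strand): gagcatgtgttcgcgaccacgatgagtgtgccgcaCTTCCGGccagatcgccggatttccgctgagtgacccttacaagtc
The stretch between LRRC41 and UQCRH held an ETS match, and that between GPBP1L1 and TMEM69 none of the letters searched. How the genes of each pair moved is given further on.

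Over the RefSeq promoters (250 bases before to 50 after the start), 42 of the 46 members with enough reads had a sequence. GC boxes occurred in 31 of them (73.8%), against 58.5% of 15843 protein-coding promoters. CCAAT boxes occurred in 20 (47.6%, against 36.4%), ETS matches in 7 (16.7%, against 14.2%), E-boxes in 6 (14.3%, against 8.88%) and TTTGAA in 5 (11.9%, against 12.1%). TATAAA was found in 1 (2.38%, against 9.63%), AAGATGG in 2 (4.76%, against 6.40%) and the NRF1 palindrome in 1 (2.38%, against 1.75%). The median GC content was 64.2% against 62.7%, and the median number of CpG pairs was 22.5 against 22. Over the 56 members with a sequence, fitted or not, these medians were 62.3% and 21. The 15843 promoters were not limited to genes with enough reads, so the sets are unlike, and no difference was tested. The promoter of TMEM125 had 0 CpG pairs, the lowest among the 42, and those of TMEM69 and RNF220 followed with 7.

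All 64 members were listed in the tables. A minimum of 10 reads in 2 or more libraries was set, and 46 members met it and were fitted. The other 18 had from 0 to 30 reads over the 5 libraries. They include the endothelial receptor TIE1, KLF18 and P3R3URF at 0 reads, and ARMH1 with 30. A gene can pass such a filter through its higher libraries alone; 3 fitted members (TESK2, BTBD19 and DMBX1) had fewer than 10 reads at 100:0, and 1 (ARTN) had fewer than 10 at 0:100.

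A slope is the log2 change in level from 0 to 100% HCC827 along a straight line fitted over the 5 libraries. Pools mix by mass, so the level of a steep gene does not follow a straight line in log2. Its slope can therefore differ from the log2 ratio of the pure libraries, as with 3.44 against 4.85 for TMEM125. Such departure also counts as scatter in SEs and p-values. The slope was positive for 44 of the 46 fitted members. With edgeR's quasi-likelihood test, 41 rose and 0 fell at an adjusted p-value under 0.05, where 23.5% of 13492 genes rose and 22.3% fell. At an unadjusted p-value under 0.05 the number that fell was also 0. The window was chosen from this contrast, so nothing is read from that share. The median slope of the 46 was 1.48, and the median over every gene fitted was -0.035. Between the pure libraries, the median member was 2.85-fold higher at 0:100. In bulk RNA, more cells with a transcript and more of it per cell cannot be told apart.

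**Figure D1:**
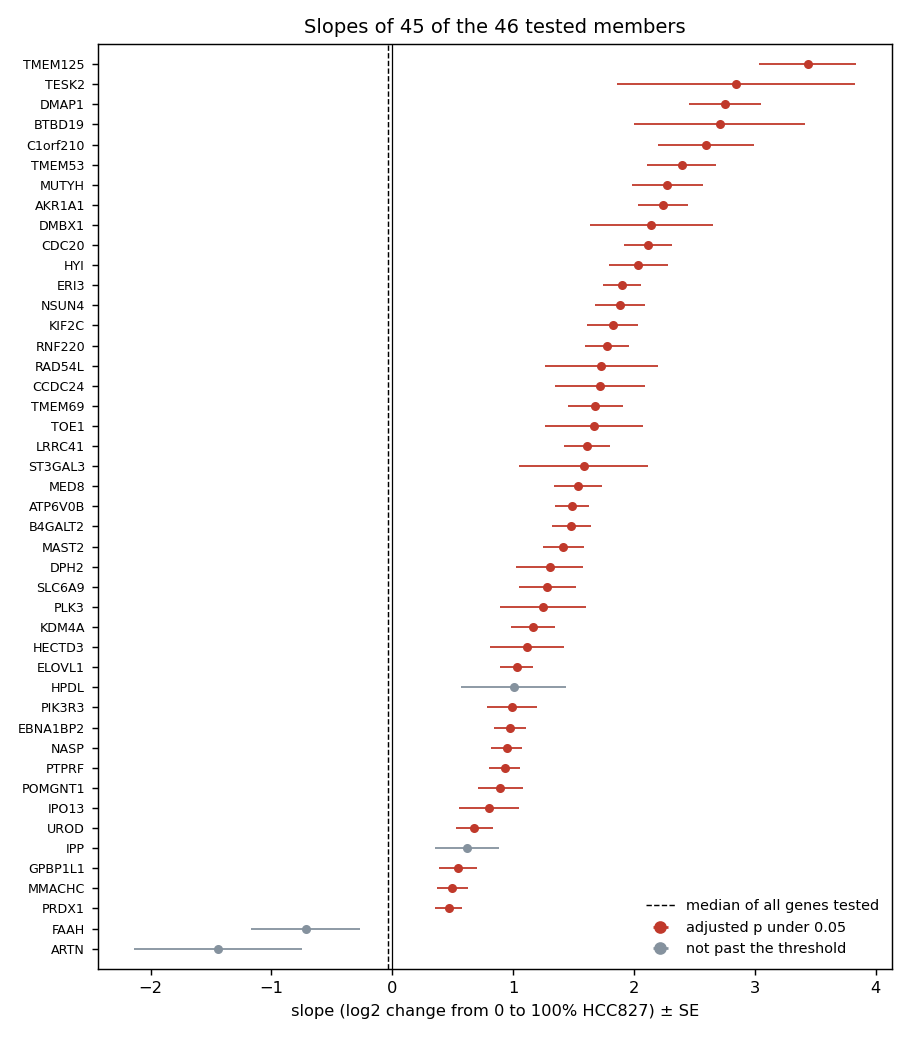
Slope of 45 of the 46 fitted members, as the log2 change from 0 to 100% HCC827 with its SE, ordered by size; red points passed the threshold, grey points did not, and the dashed line is the median of every gene fitted. Slopes ran from -1.44 (ARTN) to 3.44 (TMEM125), and 43 of the 45 drawn lay above 0.

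Sizes differed widely among neighbours. At least a 4-fold higher level at 0:100 was seen for 13 members and a 2-fold to 4-fold higher level for 20, so 33 were at least 2-fold higher, where 16.2% of all genes were. A further 11 were higher by less than 2-fold. The remaining 2, ARTN and FAAH, were lower, and ARTN was at least 2-fold lower, as were 18.4% of all genes. The SD of the 46 slopes was 0.88, against 1.18 over every gene fitted.

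The summed level of the 64 members was 1882 CPM at 100:0, 2558 at 75:25, 3060 at 50:50, 3629 at 25:75 and 4328 at 0:100, a 2.30-fold difference between the ends. PRDX1 gave 27.3% of the members' reads at 100:0 and 16.5% at 0:100. Without it the sum went from 1369 to 3612 CPM, or 2.64-fold. The sum thus rose at each step with or without its most abundant gene.

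Values of 34 members rose at every step of the series and 0 fell at every step, where 14.9% and 13.6% of all genes did. When libraries were scaled by totals, 21 members rose at every step. In 39 members the 100:0 library was the lowest and the 0:100 library the highest, as in 23.7% of all genes. For the 22 members at least 2-fold higher at 0:100 and with at least 100 reads over the pure libraries, the median position between the pure libraries was 26.8% at 25% HCC827. It was 45.0% at 50% and 69.9% at 75%. The same measure over 1139 genes of the whole table was 26.5%, 45.5% and 70.6%.

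**Figure D2:**
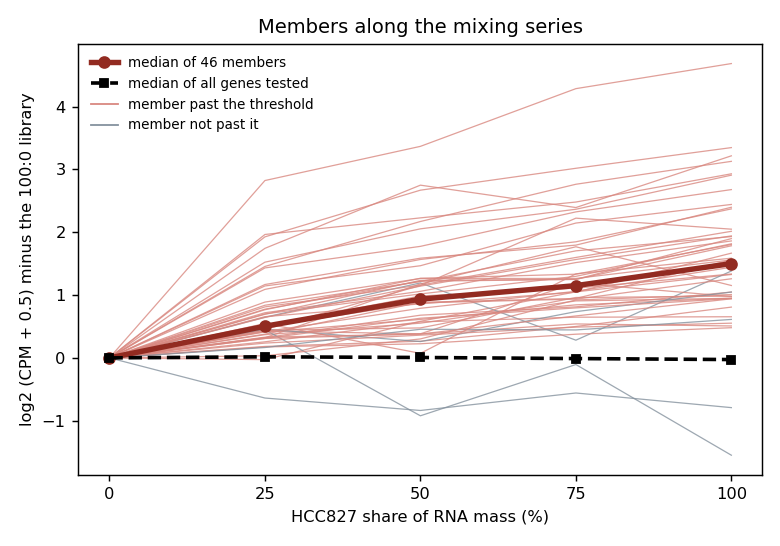
Level of each fitted member against the HCC827 share of RNA mass, as log2 (CPM + 0.5) minus its value at 100:0; thin lines are members, the thick red line their median and the dashed black line the median of all genes fitted. The members' median rose from 0 through 0.50, 0.94 and 1.15 to 1.50, while the median of all genes stayed between -0.026 and 0.017.

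Of the cell division and genome upkeep list, 6 of 6 rose, with a median slope of 1.78. Counts for this and the following lists stand beside 41 of 46 for all fitted members and 23.5% of all genes, and since the window was chosen for genes that rose, they say nothing particular about a list. CDC20 (chromosome 1, 43358981 to 43363203, plus strand), which activates the anaphase-promoting complex at mitosis, had 53.8 CPM at 100:0, then 115, 160, 195 and 281. Every step went up, and the pure libraries differed 5.22-fold (95% exact interval 4.43 to 6.17, counting error only, as for every interval here). KIF2C (44739818 to 44767767, plus strand), a kinesin that takes microtubules apart, had 16.7, 30.3, 39.6, 55.7 and 65.3 CPM, with a slope of 1.83 ± 0.21 (SE). MUTYH, the DNA glycosylase that removes adenine mispaired with oxidised guanine, had 7.17, 20.2, 25.8, 38.0 and 48.7 CPM. It was 6.78-fold higher at 0:100, with a slope of 2.27 ± 0.29. RAD54L, a motor protein of homologous recombination, had 4.19, 6.35, 4.43, 11.4 and 13.6 CPM, and its 50:50 library dropped below the 75:25 library. PLK3, a polo-like kinase, had a slope of 1.25 ± 0.36, on 162 reads in all. Both lost their calls without the 0:100 library, and PLK3 also under library totals. NASP, a histone chaperone with 2522 reads, rose from 103 to 198 CPM, the smallest slope of the list at 0.95 ± 0.13.

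Of 9 metabolism and redox enzymes, 7 rose and 2 did not pass the test, with a median slope of 1.00. AKR1A1 (45550543 to 45570049, plus strand), an aldehyde reductase, had 23.3, 52.2, 65.4, 105 and 129 CPM, a 5.53-fold difference (4.32 to 7.17). HYI, a putative hydroxypyruvate isomerase, had 14.1, 32.2, 43.2, 50.0 and 76.2 CPM, a 5.42-fold difference between the ends (3.93 to 7.62). ATP6V0B, a membrane subunit of the proton pump of lysosomes, had 90.9, 118, 168, 176 and 269 CPM. These 3 rose at every step. ELOVL1, which lengthens very long fatty acids, rose from 61.6 to 128 CPM. UROD (45010950 to 45015575, plus strand), an enzyme of heme synthesis, had 65.5, 78.3, 97.7, 103 and 103 CPM, with a slope of 0.68 ± 0.15 and a level that was flat between the last 2 libraries. Its call was lost under library totals.

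PRDX1 (45510914 to 45542732, minus strand), which reduces peroxides, had the most reads of any member, 10258. Its level was 513 CPM at 100:0, then 579, 599, 666 and 716. It rose at every step, 1.40-fold in all (1.31 to 1.49), and its slope of 0.47 ± 0.11 was the smallest of the 41. MMACHC, which processes cobalamin, overlaps PRDX1 on the opposite strand. It had 154, 191, 201, 224 and 219 CPM, and its slope of 0.50 ± 0.13 was the next smallest of the 41. MMACHC reads numbered 30.0, 33.0, 33.4, 33.6 and 30.6% of PRDX1 reads along the series, and 97.6% of them lay on MMACHC-201, a transcript of 5049 bases. The sources do not say if reads were counted by strand, so reads of these 2 genes cannot be told apart with certainty. Under library totals both PRDX1 and MMACHC lost their calls, and MMACHC also did without the 100:0 library. HPDL had a slope of 1.00 ± 0.43 and FAAH one of -0.72 ± 0.45, and neither passed the test.

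**Figure D3:**
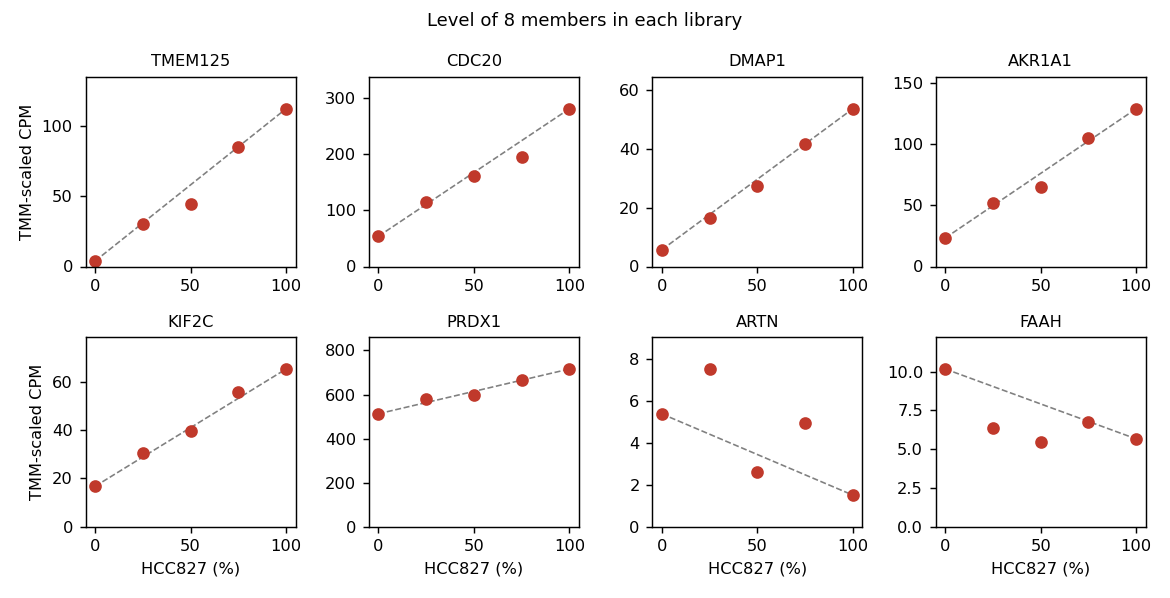
TMM-scaled CPM of 8 members in each library against the HCC827 share of RNA mass; points are libraries and the dashed line joins the pure libraries. TMEM125, CDC20, DMAP1, AKR1A1, KIF2C and PRDX1 rose at every step, whereas ARTN and FAAH were lower at 100% than at 0% with inner libraries out of order.

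All 9 fitted genes of the chromatin, RNA and nuclear transport list rose, with a median slope of 1.54; the 10th, KLF17, had 13 reads. DMAP1 (44213455 to 44220681, plus strand), a subunit of the TIP60 histone acetyltransferase complex, had 5.68, 16.5, 27.3, 41.5 and 53.6 CPM. It was 9.43-fold higher at 0:100 (5.82 to 16.1) and rose at every step. ERI3, an exoribonuclease, had 27.8, 43.7, 62.0, 83.4 and 108 CPM. LRRC41 rose from 33.8 to 119 CPM and MED8, a Mediator subunit, from 26.6 to 67.5 CPM. KDM4A, a histone demethylase, went from 28.7 through 40.7, 53.1 and 55.3 to 69.4 CPM. TOE1, a deadenylase, had 135 reads and a slope of 1.67 ± 0.40. EBNA1BP2, a ribosome assembly factor, had a slope of 0.97 ± 0.13, the import receptor IPO13 one of 0.80 ± 0.25 and GPBP1L1 one of 0.54 ± 0.16. IPO13 and GPBP1L1 lost their calls under library totals and without the 100:0 library, and IPO13 also without the 0:100 library and under DESeq2's Wald test. The list thus spanned from the upper to the lower end of the rising members.

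The 4 glycosylation and protein modification genes rose, with a median slope of 1.39. B4GALT2, a galactosyltransferase, had 55.0, 87.0, 100, 114 and 176 CPM, and DPH2, which takes part in making diphthamide on a translation elongation factor, rose from 12.0 to 36.2 CPM. POMGNT1, which extends O-mannose sugars, went from 25.7 to 49.8 CPM. The sialyltransferase ST3GAL3 had 3.29, 4.23, 8.07, 12.4 and 7.92 CPM on 116 reads, so its 0:100 library lay below its 25:75 library. Its call was lost when libraries were scaled by totals and without the 100:0, the 75:25 or the 25:75 library.

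Of 10 receptors, ligands, transporters and signalling genes, 6 could be fitted and 5 rose. PTPRF (43525187 to 43623666, plus strand), a receptor tyrosine phosphatase with 4964 reads, had 198, 264, 303, 356 and 383 CPM, a 1.94-fold difference (1.75 to 2.14). MAST2, a microtubule-associated kinase, went from 26.6 to 73.2 CPM, and the glycine transporter SLC6A9 from 14.3 to 37.0 CPM. Both rose at every step. PIK3R3, a regulatory subunit of PI3-kinase, rose from 23.6 to 47.2 CPM. The kinase TESK2 had 0 reads at 100:0, then 5, 11, 6 and 11. With the 0 reads set to 3, TESK2 was 4.63-fold higher at 0:100. On the reads as counted, the exact interval started at 3.17 and had no upper limit. Its call was lost without the 100:0 or the 75:25 library and under library totals.

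ARTN (43933320 to 43937240, plus strand), a ligand of the GDNF family, went against its neighbours. It had 5.38 CPM at 100:0, then 7.52, 2.60, 4.97 and 1.51, from 18 reads at one end to 4 at the other. The pure libraries differed 3.57-fold (1.17 to 14.5), but the inner libraries were out of order and the slope of -1.44 ± 0.70 did not pass the test. It passed when libraries were scaled by totals, with a slope of -1.85 (adjusted p = 0.0383, edgeR). FAAH (46394317 to 46413848, plus strand), which breaks down the endocannabinoid anandamide, had 10.2, 6.35, 5.47, 6.74 and 5.66 CPM. The 100:0 library of FAAH was the highest and the other 4 lay close together. FAAH had 34 reads at 100:0 and 15 at 0:100, a 1.80-fold difference (0.952 to 3.55). That interval includes no difference, and the slope of FAAH did not pass the test.

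The 12 fitted members outside these lists had the highest median slope, 1.83, and 10 of them rose. TMEM125 (43269983 to 43274002, plus strand), a membrane protein, had 3.89 CPM at 100:0, then 30.6, 44.8, 85.1 and 112. It was 28.9-fold higher at 0:100 (16.7 to 55.0), on 13 and 298 reads. It overlaps EBNA1BP2, which has 2332 reads, on the opposite strand. Its neighbour C1orf210 had 3.59, 15.0, 25.5, 32.6 and 41.1 CPM and was 11.5-fold higher (6.30 to 22.9). TMEM53, a nuclear envelope protein, went from 10.5 to 81.9 CPM and the homeobox gene DMBX1 from 1.49 to 14.7 CPM, the latter on 5 and 39 reads. The mitochondrial RNA methyltransferase NSUN4 rose from 14.6 to 60.7 CPM, the ubiquitin ligase RNF220 from 21.2 to 78.5 CPM and TMEM69 from 12.0 to 43.4 CPM. CCDC24, BTBD19 and the ubiquitin ligase HECTD3 had slopes of 1.72, 2.71 and 1.11, and HECTD3 lost its call under library totals. BTBD19 had 50 reads in all, 3 of them at 100:0, and 98% of the 50 lay on the retained-intron transcript BTBD19-207. IPP, with a slope of 0.62, did not pass.

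Ratios of the pure libraries were read on both sides of each end of the window. Just outside the lower end, the log2 ratio was 1.07 for ERMAP, 3.63 for ZNF691 and 0.14 for SLC2A1, the glucose transporter nearest to the window. Just inside it was 0.95 for EBNA1BP2, 4.85 for TMEM125 and 3.52 for C1orf210. Inside the upper end it was 2.05 for NSUN4, -0.84 for FAAH and 3.30 for DMBX1, and just outside 2.21 for MKNK1, 1.61 for MOB3C and 1.31 for ATPAF1. At the lower end both sides held a ratio near or below 1 and a ratio above 3. Several of these ratios rest on few reads at 100:0: 9 for ERMAP, 5 for ZNF691, 13 for TMEM125 and 12 for C1orf210. At the upper end DMBX1 had 5 reads and MOB3C 12 at 100:0. SLC2A1 had 393 reads at 100:0, and neither its slope of 0.10 ± 0.12 nor that of ERMAP passed the test. At the upper end the 3 genes outside were all higher in 0:100, and the low value, that of FAAH, lay inside.

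The stretches on either side also held many genes that rose. In the 3.5 Mb below the window, 18 of 31 fitted protein-coding genes rose and 0 fell, with a median slope of 1.11. In the 3.5 Mb above it, 8 of 10 rose and 0 fell, with a median of 1.23. Over the rest of the short arm, 219 of 586 rose and 54 fell, with a median of 0.40. No test of these differences was made, and the slopes come from the contrast that led to the window.

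Read gene by gene in order, fitted protein-coding genes formed long stretches with slopes above 0, the genes left out by name included. One ran over 16 genes from C1orf50 (42767245), below the window, to ST3GAL3. After ARTN, another ran over 36 genes from IPO13 to NSUN4, and after FAAH another over 11 genes from DMBX1 to SPATA6 (48295373), above the window. The running median of the log2 ratio over 9 neighbouring genes stayed between 0.95 and 1.99 at the members. It ranged from 0.16 to 2.38 in the lower flank and from 1.23 to 2.05 in the upper. At 1123 positions elsewhere on chromosome 1 it ranged from -1.83 to 2.23, with a median of 0.16.

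**Figure D4:**
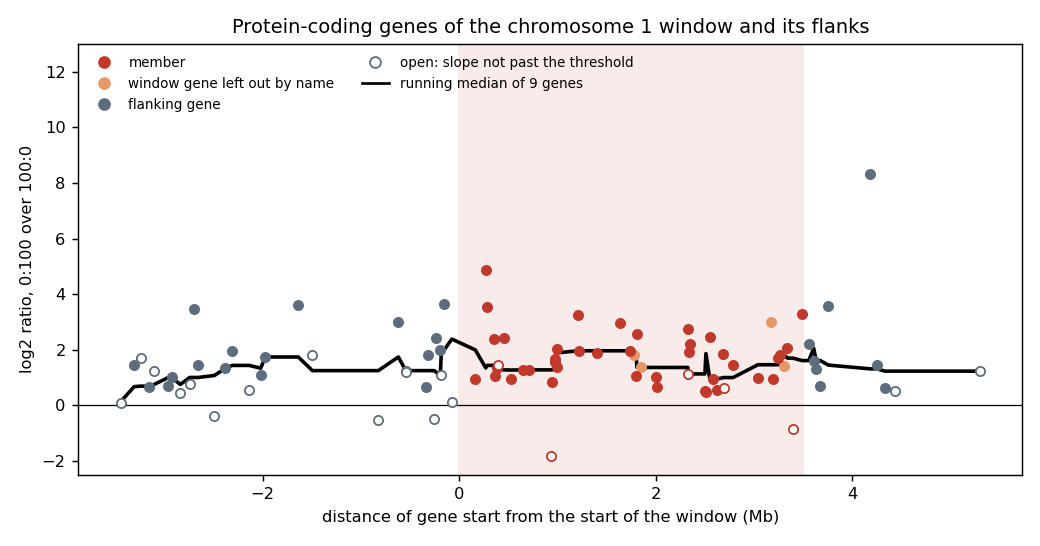
Log2 ratio of the 0:100 over the 100:0 library for fitted protein-coding genes against the distance of their start from the start of the window in Mb; the shaded area is the window, filled points passed the slope test, and the black line is the running median of 9 genes. Points above 0 extend past both ends of the window, 2 members (ARTN and FAAH) lie below 0, and the highest flanking point is PDZK1IP1.

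Members on both strands rose: 25 of 29 fitted members on the plus strand rose, with a median slope of 1.49, and 16 of 17 on the minus strand, with a median of 1.28. In 20 of the 46 members, overlapping genes on the opposite strand held over 10% as many reads as the member itself. Among the other 26, 23 rose and the median log2 ratio between the pure libraries was 1.40, against 1.51 for the 46. These counts by strand and overlap stand beside 41 of 46 fitted members and 23.5% of all genes that rose. The window was chosen from this contrast, so nothing is read from these counts. KDM4A and ST3GAL3 also share the readthrough gene ENSG00000284989 on their own strand, with 6 reads, and PIK3R3 shares P3R3URF-PIK3R3, with 24.

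Slopes of head-to-head neighbours lay close in some pairs and apart in others. Values are given for 5 pairs with start sites within 1000 bases. A start site here is the outermost annotated start of the gene. Where the transcripts that held the reads start was not checked. LRRC41 and UQCRH, 82 bases apart, had slopes of 1.61 ± 0.19 and 1.44 ± 0.13 (SE), a gap of 0.17. GPBP1L1 and TMEM69, 68 bases apart, had 0.54 ± 0.16 and 1.68 ± 0.23, a gap of 1.14.

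In the 3 other pairs the annotated starts overlap. MUTYH and TOE1 had slopes of 2.27 ± 0.29 and 1.67 ± 0.40, and HECTD3 and UROD 1.11 ± 0.31 and 0.68 ± 0.15. EBNA1BP2 and TMEM125 had 0.97 ± 0.13 and 3.44 ± 0.40, the widest gap at 2.46. EBNA1BP2 spans 43164175 to 43270936, while the mean length of its transcripts weighted by reads was 1389 bases. Where on that span its reads start was not checked, so this pair rests on the annotation alone. Differences within pairs were not tested.

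**Figure D5:**
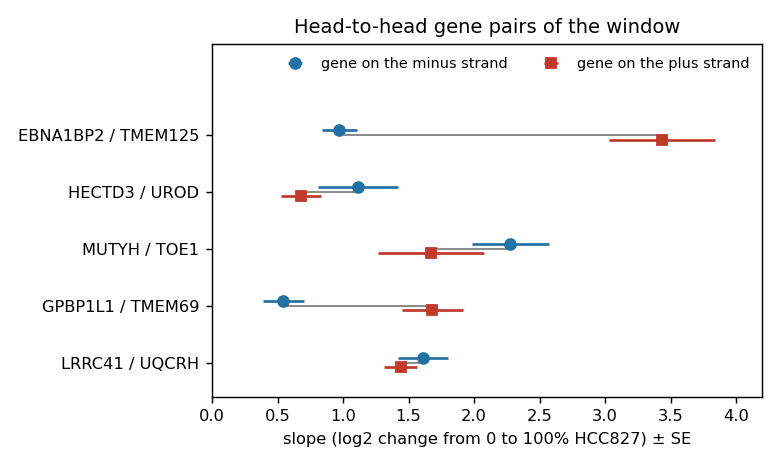
Slopes with SE of 5 head-to-head pairs, paired by the outermost annotated starts of the genes. Blue circles mark the gene on the minus strand and red squares the gene on the plus strand, joined by a grey line. The gap ran from 0.17 (LRRC41 and UQCRH) to 2.46 (EBNA1BP2 and TMEM125), and all 10 slopes were above 0.

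Use of transcripts within a gene was not part of the rule and could be tested. Of 33 members with 2 or more fitted transcripts, 0 changed usage by edgeR's diffSpliceDGE (Simes p-values adjusted over all genes, threshold 0.05), where 0.402% of 7455 genes did. The gene-level F test also called 0, with 1 at an unadjusted value under 0.05. Over all 7455 genes that F test called 66, with 559 at an unadjusted value under 0.05. In HYI alone the unadjusted value passed 0.05, at 0.0292 (adjusted p = 1.00, edgeR), where 3.86% of all genes passed. The retained-intron transcript HYI-208 took 14.9% of HYI reads at 100:0, then 8.76, 6.02, 3.55 and 2.48%, resting on 7 reads at 100:0 and 5 at 0:100. RNF220 and MMACHC had the next smallest unadjusted values, 0.0831 and 0.162.

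Shares of other transcripts varied in how far they moved, and none of these genes passed the test. RNF220-208 took 19.7% of the reads of its gene at 100:0 and 11.1% at 0:100, and KIF2C-202 took 41.1 and 53.2%. TMEM125-201 took 69.2% at 100:0, on 13 reads of the gene, and 49.3% at 0:100. CDC20-201 and CDC20-202 divided the reads of CDC20 with 48.9 and 51.1% at 100:0 and 49.1 and 50.9% at 0:100. PRDX1-201, PRDX1-202 and PRDX1-203 took 34.8, 33.1 and 31.1% at 100:0 and 37.0, 33.9 and 28.6% at 0:100. Across the members, protein-coding transcripts took between 85.0 and 86.1% of reads in each library and retained introns between 3.10 and 3.64%. Over all protein-coding genes retained introns took between 7.92 and 8.35%. How reads matching several transcripts were divided was not stated, so shares between similar transcripts are uncertain.

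The median length of the transcripts assigned to fitted members was 2141 bases, against 2850 over all genes. Across the 46 members, Pearson's r of the slope with log10 length was -0.040 and Spearman's rho -0.096, and across all genes -0.16 and -0.19. Genes share libraries and are not independent, so these are descriptions. With the length trend of each library removed, 3140 of 13492 genes rose. Of the members, 41 rose, and their median slope was 1.39. Of the 41 called before, 40 were among them, and PRDX1 lost its call.

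The partners of several members, encoded elsewhere in the genome, were read from the same fit. Of 6 peroxiredoxins, PRDX1, PRDX5 and PRDX6 rose, with slopes of 0.47, 0.43 and 1.10. PRDX2 fell with a slope of -0.45 ± 0.12 (adjusted p = 0.00903, edgeR), and PRDX3 and PRDX4 did not pass.

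CDC20 stood beside partners of smaller slope. Of 7 spindle checkpoint genes and activators of the anaphase-promoting complex, CDC20 was the 1 that rose, with a slope of 2.12 ± 0.20, BUB3 fell with -0.44 ± 0.16, and FZR1, MAD2L1, BUB1, BUB1B and TTK did not pass, with slopes from 0.14 to 0.51. KIF2C rose, while its relatives KIF2A and KIF24 had slopes of 0.12 ± 0.19 and 0.98 ± 0.44 and did not pass. Among V-ATPase membrane subunits, ATP6V0B and ATP6V0D1 rose with slopes of 1.49 and 0.88, and 4 others did not pass. KDM4A rose while KDM4B fell with a slope of -0.81 ± 0.19. Of 3 PI3-kinase regulatory subunits PIK3R2 and PIK3R3 rose. Differences between a member and its partners were not tested.

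The count of members that rose was 41 under DESeq2 size factors and limma-voom and 40 under DESeq2's Wald test. Of 13492 genes, 3250 rose under DESeq2 size factors, 3168 under limma-voom and 2579 under the Wald test. With at least 10 reads in every library 38 of 42 members rose, beside 2684 of 10884 genes. With no filter 43 of 61 members rose, beside 3110 of 26426 genes. Scaling by library totals gave 32 members that rose and 1 that fell, beside 1803 and 5119 of 13492 genes. That scaling moved the median slope of every gene to -0.45 and that of the members to 1.07. Leaving out 1 library gave 36 without 100:0 and 37 of 45 without 0:100, the lowest counts. Over all genes, 2401 of 13183 rose without 100:0 and 2255 of 13352 without 0:100. The window was chosen from this contrast, so nothing is read from these counts. Calls for 31 members held in every one of these fits that tested them.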

How the data were processed

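The 5 nanopore cDNA libraries were analysed as 1 sample per mixing ratio. The authors deposited 1 table per library with estimated counts of reads per transcript, unscaled, and the transcript length in bases, an other annotation column. minimap2 2.24, Salmon 1.9.0 and GRCh38 are named in the submitters' processing notes, with no role or settings; the annotation release is not given in the sources used here. The 161 identifiers listed again were summed, 2 values that were not whole were rounded, and transcripts were summed to GENCODE v44 genes (98.6% of human reads matched).

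Slopes on the HCC827 fraction were fitted to all genes with at least 10 reads in at least 2 libraries (edgeR 4.0.16, R 4.3.3, TMM, quasi-likelihood F test, Benjamini-Hochberg over all genes). Scaled CPM uses reads on matched genes. Scatter about the fitted line corresponded to a biological coefficient of variation of 9.11%. Fold intervals are exact binomial (95%). PCR reads are not independent molecules, so intervals cover counting error only. In ratios, values under 3 reads were set to 3. On simulated data for this slope test with 13126 genes fitted, 83 of 94 genes changed 4-fold and 52 of 98 changed 2-fold were recovered. There were 8 false calls. Few genes were changed there, both up and down, with the same scatter for every gene. In the data 45.7% of genes were called, so recovery and false calls with so many changed genes are not known. The isoform usage test was tried on 4000 artificial genes of 2 transcripts each, with levels of genes with many reads and equal depth in each library. A large switch in usage was planted in 200 of them, and 175 were recovered with 0 false calls. Genes with fewer reads or more transcripts, as many members are, were not simulated, so recovery for them is not known. DESeq2 1.42.0 and limma 3.58.1 served as alternatives.

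Members, gene lists and naming rules were chosen with earlier results of these data known. The rule named the 10 highest and 10 lowest members by ratio among those with at least 100 reads over the pure libraries, genes at the window's ends, list members, head-to-head pairs, the members with the smallest isoform p-values and the member with most reads; the other fitted members, promoter letters and sequences shown were added after values were seen. Some genes and 1 pair are not reported here.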

Additional observations from a re-analysis of the deposited data

How the results depend on the processing

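The number of genes called along the series, 6172, stayed within 1.5 times under each setting except without the 0:100 library; fits that left out 1 library gave from 4068 to 5859. Of these 3166 rose; under library totals 1803 of 6922 rose. The number of members called, 41, stayed within 1.5 times in each full set of members, with 36 to 41 when 1 library was left out. It was 23 of 26 among members with little opposite-strand overlap, since fewer genes were counted; that setting and removal of the length trend were added once values were known. The median log2 ratio of members between the pure libraries, 1.51, was 1.09 under library totals, 1.40 with a floor of 10 reads, 1.58 for 32 members with at least 100 reads and 1.40 with little opposite-strand overlap. Members in order along the series numbered 34, and 21 under library totals; the cause of that drop was not tested. Genes called for isoform usage numbered 30, 66 under the gene-level F test and from 4 to 20 when 1 library was left out (7 without 0:100, 4 without 100:0, 20 without 50:50 and 8 without either of the others); members called numbered 0 in each. Of 546 alternative slopes of members, 0 changed sign, 22 lost and 4 gained a call. IPO13 and ST3GAL3 lost their calls in 4 settings, TESK2 in 3, GPBP1L1, MMACHC, PLK3 and PRDX1 in 2, and HECTD3, RAD54L and UROD in 1. No paired analysis was possible because each ratio had 1 library. Members with few reads, such as TESK2 with 33, are limited by depth.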

Other observations

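Genes of the window outside the rule were read from the same fit. Among the protein-coding genes left out by name, 3 that rose at every step were UQCRH of respiratory complex III from 219 to 591 CPM, the tetraspanin TSPAN1 from 28.1 to 224 CPM and the translation factor subunit EIF2B3 from 16.7 CPM with a slope of 1.35.

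Of 68 genes of other types in the window, 4 had enough reads to be fitted, 0 rose and 2 fell. The long noncoding RNA ENSG00000230615 (chromosome 1, 44030414 to 44115913, plus strand), which overlaps SLC6A9 on the opposite strand, had 47, 49, 43, 28 and 14 reads along the series and a slope of -1.06 ± 0.37 (edgeR quasi-likelihood test, adjusted p = 0.0303). ENSG00000291138 (46433827 to 46482493, plus strand), between FAAH and DMBX1, had 20, 11, 8, 5 and 4 reads and a slope of -2.08 ± 0.71 (edgeR quasi-likelihood test, adjusted p = 0.0291). CDC20-DT and KDM4A-AS1 had slopes of 1.35 and 0.60 and did not pass.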
